A study of Mus musculus with 12 samples.

Results

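The genes described here are 9 components of the immunoreceptor pathways that costimulate or restrain osteoclasts, out of 55806 genes in the deposited expression table. They were chosen by name: the adaptors Tyrobp and Fcer1g, the receptors Oscar, Trem2 and Siglec15 that work through such adaptors, the signalling enzymes Syk and Plcg2, and the inhibitory receptors Pirb and Lilrb4a. All 9 passed the filter on low values and were among the 12237 genes tested. RNA was sequenced from cultured osteoclasts, which break down bone. They were grown from marrow monocytes, taken at 8 to 12 weeks of age, with the growth factor M-CSF and the osteoclast cytokine RANKL, and harvested at 4 days. Cells came from males and females, either controls or labelled as knockouts of the circadian clock repressor Per1, which gives 4 groups of 3 libraries, and every group received both cytokines. The library names write the allele as cKO, and the labels name no strain, no Cre driver and no deleted part. The labels give replicates 1, 2 and 3 of every group batch numbers equal to their own. The sample titles call the replicates biological. Whether each was a separate animal is not stated, so a p-value here covers only the variation among these libraries, some of which may be technical.

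An immunoreceptor tyrosine-based activation motif (ITAM) is a pair of tyrosines in the tail of an adaptor protein. Receptors with short tails, such as Oscar, which binds collagen, and Trem2, which binds lipids and lipoproteins, pair with the adaptors through charged residues buried in the membrane. When the ITAM tyrosines are phosphorylated by Src family kinases they recruit the kinase Syk, which activates phospholipase C gamma (Plcg2), calcium release, calcineurin and the transcription factor NFATc1, the driver of osteoclast genes. Mice that lack both Tyrobp (the protein DAP12) and Fcer1g (the Fc receptor gamma chain) form few working osteoclasts and develop dense bone. An immunoreceptor tyrosine-based inhibitory motif (ITIM) holds a single tyrosine, which recruits phosphatases that oppose this cascade, and Pirb and Lilrb4a carry such motifs.

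The stretches that define these roles are shown as coding DNA, because they set apart the adaptors, the receptors that need them and the inhibitory receptors whose values follow. They were read from the lowest-numbered complete coding transcript of each gene in GENCODE M21 on build GRCm38, written 5′ to 3′ on the sense strand. The ITAM lines give 45 bases each from the tails of the adaptors, with the tyrosine codons in capitals.
Tyrobp ITAM, codons 92 to 106: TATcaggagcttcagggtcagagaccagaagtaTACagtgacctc
Fcer1g ITAM, codons 65 to 79: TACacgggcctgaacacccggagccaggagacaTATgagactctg
The next lines give 75 bases around the most hydrophobic window of 19 codons in both adaptors and in Oscar and Trem2, with the codons of charged residues inside the window in capitals.
Tyrobp membrane stretch, codons 42 to 66: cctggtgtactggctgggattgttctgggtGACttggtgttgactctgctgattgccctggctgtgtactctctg
Fcer1g membrane stretch, codons 21 to 45: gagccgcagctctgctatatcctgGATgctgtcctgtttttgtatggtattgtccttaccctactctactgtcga
Oscar membrane stretch, codons 232 to 256: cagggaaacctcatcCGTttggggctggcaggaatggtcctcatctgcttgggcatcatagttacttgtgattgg
Trem2 membrane stretch, codons 169 to 193: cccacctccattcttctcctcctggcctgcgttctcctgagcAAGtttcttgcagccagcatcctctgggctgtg
Both adaptors hold an aspartate codon (GAC, GAT), while Oscar holds an arginine codon (CGT) and Trem2 a lysine codon (AAG). The last lines give the ITIM stretches of 18 bases that follow the membrane window of the inhibitory receptors, with the tyrosine codon in capitals.
Pirb ITIM, codons 711 to 716: agcctaTATgcttcagtg
Pirb ITIM, codons 792 to 797: gtgaccTATgcccagctg
Pirb ITIM, codons 822 to 827: agtgtaTATgctactctg
Lilrb4a ITIM, codons 298 to 303: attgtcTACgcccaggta
Lilrb4a ITIM, codons 320 to 325: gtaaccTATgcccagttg

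The ITAM was searched as a tyrosine followed at the third residue by leucine or isoleucine, with a second such unit 6 to 12 residues on. The ITIM was searched as a tyrosine with serine, isoleucine, valine or leucine at the second residue before it and isoleucine, leucine or valine at the third residue after it. Among 8308 coding genes of the same annotation with a membrane-like window, 3.39% had an ITAM match and 37.6% an ITIM match after it, in tails of any length. Tyrobp and Fcer1g had 1 ITAM match each, Pirb 3 ITIM matches and Lilrb4a 2. The ITIM search, which allows overlap with an ITAM, also matched once in Tyrobp and once in the tail of Siglec15. Oscar and Trem2 matched neither pattern in the 18 and 37 codons after their windows. The coding sequences of Tyrobp and Fcer1g were identical at 72.6% of 241 aligned bases.

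Libraries held 15366600 to 24346288 fragments, and 11207 to 12060 genes per library reached 1 FPKM, which is fragments per kilobase of gene length, scaled to a common number of fragments per library. Per1 lay between 2.36 and 4.04 FPKM in all 12 libraries, with a log2 change of -0.24 in males and 0.21 in females and limma adjusted p of 0.448 and 0.542, so groups are named here as the libraries labelled control or knockout. A level over the whole gene need not show a deletion of part of it. Xist was at 40.5 FPKM or more in the libraries labelled female and at most 0.0035 in those labelled male. All 14 osteoclast markers were expressed, with a summed level of 10294 to 18289 FPKM. The 18 monocyte and macrophage markers summed to 391 to 1536 FPKM and the 12 dendritic cell markers to 291 to 738. Neutrophil markers summed to 1436 to 2992 FPKM, megakaryocyte markers to 144 to 272 and B cell markers to 41.4 to 129. Mast cell, T and NK cell, erythroid and stromal markers summed to at most 27.4 FPKM in any library, and the mast cell gene Tpsb2 was at 0 throughout. Female control 2 and female knockout 1 and 2 stood apart, with interferon response genes summing to 1863 to 2318 FPKM against 314 to 753 in the other 9 libraries. Those 3 libraries also had the 3 highest monocyte and macrophage sums, from 1180 to 1536 FPKM. The female changes of the 9 genes, of the other genes named from the pathway lists and of the list medians are therefore given with and without them. Without them 2 female controls and 1 female knockout library remain, so every such female value rests on that 1 knockout library. The remaining libraries still differed in interferon response genes, which summed to 483 and 753 FPKM in female controls 1 and 3. The sum was 449 FPKM in female knockout 3, so these values are not free of an interferon difference.

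Tyrobp was the most abundant of the 9 genes, at a mean of 838 FPKM over the 12 libraries and in 34th place of all genes. Fcer1g followed at 345 FPKM, and Oscar at 97.0, Pirb at 68.4, Siglec15 at 55.1, Syk at 49.2, Trem2 at 39.8, Plcg2 at 32.4 and Lilrb4a at 28.5. Tyrobp, Fcer1g and Oscar held the first 3 places in this order in every library. Below them, Siglec15 moved between the 4th and the 7th place and Trem2 between the 5th and the 8th, and the ranges of neighbours from Pirb down overlapped. Tyrobp exceeded Fcer1g by 2.20 to 2.798 times in each library.

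The order depends on the length used. The table divides by its own gene length, and how that length was defined is not stated. For Trem2 the length is 4946 bases, or 4.55 times the coding transcript of 1088 bases. For Lilrb4a the ratio was 3.78 and for Syk 1.83, while for Oscar, Siglec15 and Plcg2 it was 1.01, 1 and 1. As an alternative added after seeing the data, all fragments of the gene were divided by the length of that 1 transcript. Trem2 then averaged 181 and took the third place, Lilrb4a averaged 108 and took the fourth, and Siglec15 at 55.1 took the 8th. Fragments from outside the transcript were not removed, so these values can be too high for it. Ratios of FPKM between libraries of a gene are not touched by its length. A longer length lowers FPKM, and the 1 added before taking log2 then makes the log2 changes given below smaller.

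**Figure D1:**
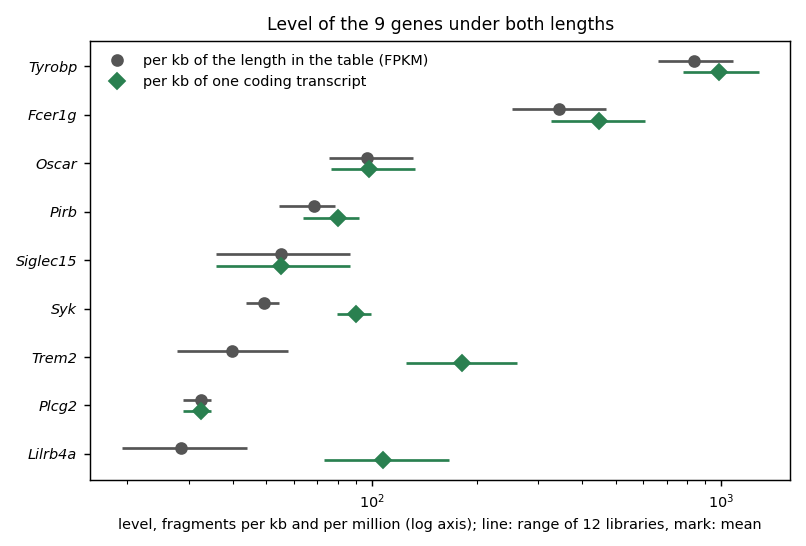
Mean level of the 9 genes over the 12 libraries on a log axis, per kilobase of the length in the table (circles) and per kilobase of 1 coding transcript (diamonds), with lines for the lowest and highest library. Both use all fragments assigned to the gene. Trem2 and Lilrb4a move up the order from 39.8 to 181 and from 28.5 to 108, while Tyrobp is highest under both lengths.

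Tyrobp (ENSMUSG00000030579, chromosome 7, 30413760 to 30417585, plus strand) measured 845, 890.2 and 813 FPKM in the male control libraries and 660.0, 755 and 756 in the male libraries labelled knockout. The male groups did not overlap. The log2 change was -0.23 (standard error 0.17, 95% interval -0.60 to 0.14), which limma with Benjamini-Hochberg adjustment over all genes did not call (adjusted p = 0.552). In females Tyrobp measured 797, 1065 and 700.1 FPKM in controls and 959, 1084 and 727 in the libraries labelled knockout. The 3 highest female values were those of the interferon-high libraries, and the log2 change of 0.12 (interval -0.25 to 0.48, limma adjusted p = 0.775) was -0.04 without them. Leaving out 1 library gave -0.02 without female control 3, -0.01 without female knockout 2, 0.29 without female control 2 and 0.28 without female knockout 3. In bulk cultures, fewer cells of a type and less RNA per cell cannot be told apart, here and in every result that follows.

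Fcer1g (ENSMUSG00000058715, chromosome 1, 171229572 to 171234365, minus strand) measured 366, 318 and 307 FPKM in male controls and 252, 310.2 and 324 in male knockout libraries. These groups overlapped, with a log2 change of -0.17 (interval -0.53 to 0.20, limma adjusted p = 0.685). It was -0.06 without male knockout 1 and -0.09 without male control 1. In females it measured 330, 468 and 309 FPKM in controls and 394, 431 and 330.1 in knockout libraries. The interferon-high libraries were again the highest 3, and the log2 change was 0.08 (interval -0.29 to 0.44, limma adjusted p = 0.846) with them and 0.05 without them. It was -0.04 without female control 3, -0.0072 without female knockout 2, 0.0093 without female control 1, 0.18 without female knockout 3 and 0.26 without female control 2.

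Oscar (ENSMUSG00000054594, chromosome 7, 3609813 to 3616157, minus strand) measured 119, 132 and 75.6 FPKM in male controls and 96.6, 97.1 and 90.8 in male knockout libraries. Male control 3 was the lowest of all 12 libraries and male control 2 the highest, so the control mean of 109 ± 29.4 FPKM (SD, n = 3) had a wide spread beside 94.8 ± 3.48 in the knockout group. The log2 change of -0.16 (interval -0.54 to 0.23, limma adjusted p = 0.723) became -0.40 without male control 3, -0.07 without male control 1 and -0.0010 without male control 2. The osteoclast marker sum of these controls had the same order, with 15326, 18289 and 12549 FPKM in replicates 1 to 3, and its part in the Oscar values was not tested. In females Oscar measured 102, 100.01 and 94.6 FPKM in controls and 81.8, 75.9 and 99.1 in knockout libraries. The knockout libraries 1 and 2, which were also interferon-high, lay below all controls and knockout 3 did not. The log2 change of -0.21 (interval -0.60 to 0.17, limma adjusted p = 0.614) was 0.01 without the interferon-high libraries, -0.13 without female knockout 2 and -0.32 without female knockout 3.

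Trem2 (ENSMUSG00000023992, chromosome 17, 48346401 to 48354147, plus strand) measured 40.01, 27.7 and 43.3 FPKM in male controls and 28.8, 32.9 and 36.5 in male knockout libraries. The log2 change was -0.15 (interval -0.66 to 0.36, limma adjusted p = 0.808), and it was -0.03 without male control 3 and -0.35 without male control 2, the male library with the lowest Trem2 and the highest Oscar. It was -0.09 without male control 1, -0.07 without male knockout 1 and -0.23 without male knockout 3. In females it measured 40.8, 53.6 and 31.4 FPKM in controls and 50.6, 57.5 and 35.2 in knockout libraries. The female log2 change of 0.19 (interval -0.32 to 0.70, limma adjusted p = 0.734) was -0.02 without the interferon-high libraries, which held the 2 highest values in the knockout group and the highest in the control group. It was 0.0010 without female control 3, 0.04 without female knockout 2, 0.38 without female control 2 and 0.39 without female knockout 3.

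Siglec15 (ENSMUSG00000091055, chromosome 18, 78043614 to 78057395, minus strand), a receptor for sialylated glycans that pairs with the Tyrobp adaptor, was the most variable of the 9, with a coefficient of variation of 28.7% over the 12 libraries. It measured 73.3, 86.7 and 36.0 FPKM in male controls and 38.2, 69.2 and 55.3 in male knockout libraries. The highest and the lowest of all 12 values were both male controls, and the log2 change of -0.21 (interval -0.87 to 0.44, limma adjusted p = 0.795) was -0.59 without male control 3, 0.04 without male control 2 and 0.02 without male knockout 1. It was -0.08 without male control 1 and -0.40 without male knockout 2. In females it measured 38.5, 50.2 and 43.5 FPKM in controls and 51.6, 53.1 and 65.6 in knockout libraries. Every female knockout library was above every female control, and the log2 change of 0.36 (interval -0.30 to 1.01) was not called (limma adjusted p = 0.620). Without the interferon-high libraries it was 0.67, from 2 controls and 1 knockout library.

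Syk (ENSMUSG00000021457, chromosome 13, 52583173 to 52648792, plus strand), the kinase that docks on phosphorylated ITAMs, measured 54.5, 51.3 and 49.2 FPKM in male controls and 47.8, 43.6 and 43.7 in male knockout libraries. All 3 knockout libraries were below all 3 controls, with means of 51.7 ± 2.63 and 45.0 ± 2.36 FPKM (SD, n = 3). The log2 change was -0.19 (standard error 0.07, interval -0.35 to -0.03), with an unadjusted p of 0.022 and an adjusted p of 0.257 in limma. In females Syk measured 52.6, 50.8 and 53.0 FPKM in controls and 46.4, 45.2 and 52.8 in knockout libraries. Here knockout 3 lay among the controls, and the log2 change of -0.12 (interval -0.28 to 0.04, limma adjusted p = 0.524) was -0.0011 without the interferon-high libraries, -0.07 without female knockout 2 and -0.18 without female knockout 3.

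Plcg2 (ENSMUSG00000034330, chromosome 8, 117498291 to 117635142, plus strand), the phospholipase that produces the calcium signal, was the steadiest of the 9, with a coefficient of variation of 4.603%. It measured 33.3, 32.4 and 28.8 FPKM in male controls and 33.2, 31.6 and 31.0 in male knockout libraries. In females it measured 33.1, 32.98 and 34.6 FPKM in controls and 33.1, 31.6 and 33.2 in knockout libraries. The groups overlapped in both sexes, and the log2 changes were 0.02 (interval -0.12 to 0.17) in males and -0.04 (interval -0.18 to 0.10) in females, with limma adjusted p of 0.913 and 0.805. The female change was -0.03 without the interferon-high libraries. Leaving out 1 library moved the male change between -0.04 and 0.06.

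Pirb (ENSMUSG00000058818, chromosome 7, 3711409 to 3720391, minus strand), which binds MHC class I molecules, measured 71.8, 71.9 and 71.9 FPKM in male controls and 54.3, 55.5 and 59.1 in male knockout libraries. The male knockout libraries were the lowest 3 of all 12, and their mean was 78.4% of the control mean. The log2 change of -0.35 (standard error 0.07, interval -0.49 to -0.20) had the lowest p of any of the 9 genes in any comparison, at 0.00029 unadjusted, and was not called after adjustment over 12237 genes (limma adjusted p = 0.105). Over all alternatives, each library left out in turn among them, it lay between -0.38 and -0.32, with adjusted p between 0.0683 and 0.375. In females Pirb measured 71.4, 78.7 and 68.3 FPKM in controls and 71.9, 75.8 and 70.8 in knockout libraries, with a log2 change of 0.0036 (interval -0.14 to 0.15, limma adjusted p = 0.984). The female knockout values lay inside the range of the female controls, and the female change was 0.02 without the interferon-high libraries.

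Lilrb4a (ENSMUSG00000112148, chromosome 10, 51490956 to 51496611, plus strand) measured 24.5, 23.1 and 25.6 FPKM in male controls and 19.3, 21.6 and 22.6 in male knockout libraries. The male groups did not overlap, with a log2 change of -0.20 (interval -0.50 to 0.10, limma adjusted p = 0.523). In females it measured 28.5, 29.9 and 30.8 FPKM in controls and 44.1, 42.9 and 28.9 in knockout libraries. Knockout 1 and 2, the interferon-high libraries of that group, were far above every other library, while knockout 3 was within the controls and so was the interferon-high control 2. The log2 change of 0.34 (standard error 0.13, interval 0.04 to 0.64) had an unadjusted p of 0.028 and a limma adjusted p of 0.409, and it was -0.03 without the interferon-high libraries and 0.53 without female knockout 3.

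**Figure D2:**
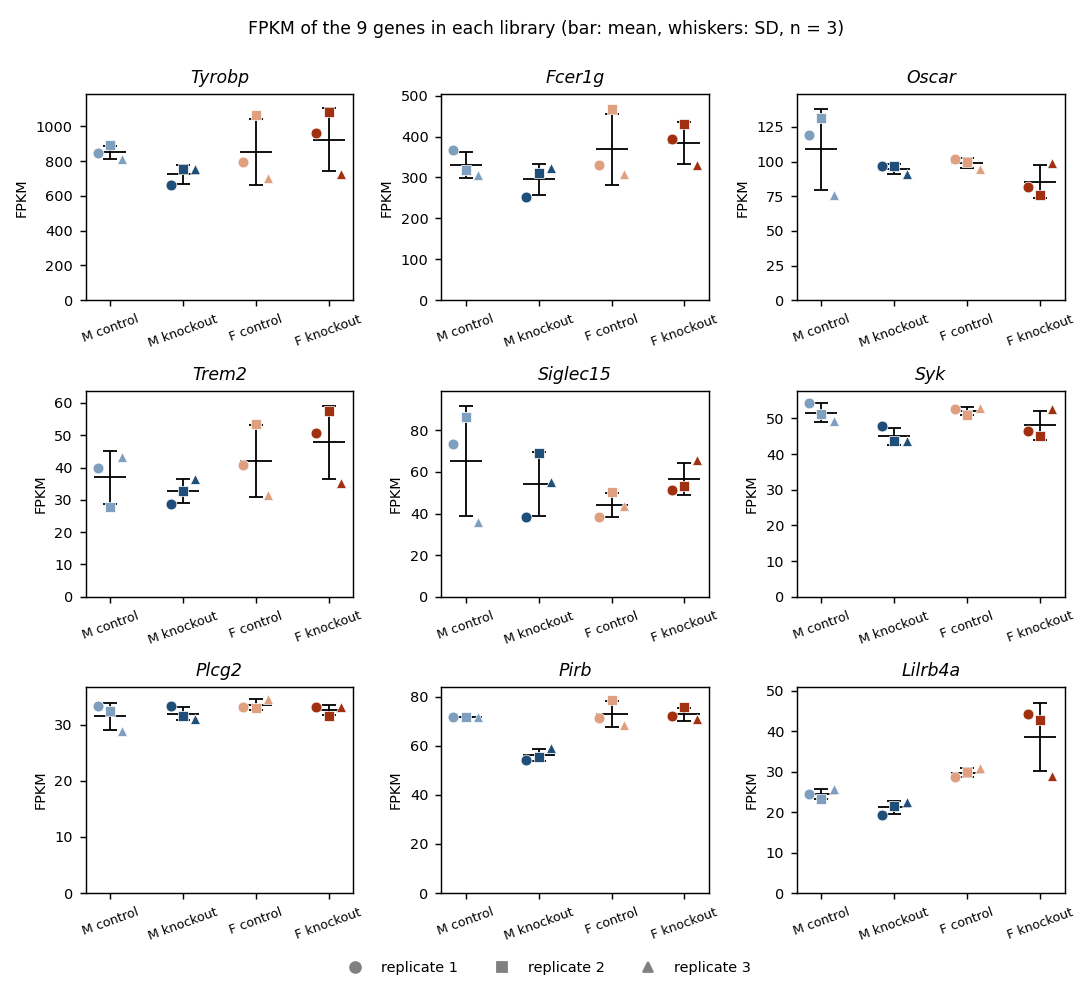
FPKM of each gene (vertical axis from 0) in the 3 libraries of each group, M for male and F for female, with symbols for replicates 1 to 3, a bar for the mean and whiskers for the SD. The 3 male knockout libraries of Pirb, at 54.3 to 59.1 FPKM, lie below the other 9, and female knockout 1 and 2 stand out for Lilrb4a at 44.1 and 42.9.

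In males, no member was called in either direction, where limma called 0.00817% of all genes tested (1 gene, the chemokine receptor Cx3cr1, at a log2 change of -1.79 and an adjusted p of 0.0086). That call was lost with a replicate block within sex (log2 change -1.79, limma adjusted p = 0.093) and when only the male groups were fitted (adjusted p = 0.139). It was also lost without male control 1 (0.086), male control 2 (0.070), male knockout 2 (0.059) or the interferon-high libraries (0.051). Voom on the rebuilt fragments called none of the 9 either. At an unadjusted p under 0.05, 2 of the 9 were lower, Pirb and Syk, where 6.54% of all genes were lower and 14.6% differed in either direction. The knockout libraries lay wholly below the controls for 4 of the 9, Tyrobp, Syk, Pirb and Lilrb4a, where 10.9% of all genes did so, and wholly above for none, where 12.5% did. The log2 change was below 0 for 8 of the 9 and for 51.2% of all genes. The monocyte and macrophage marker sum was 391 to 530.0 FPKM in male knockout libraries and 506 to 732 in male controls, and 16 of 16 tested markers of that list had a log2 change below 0. The dendritic cell sum was 291 to 419 against 446 to 613 FPKM. The part of these markers in the lower values of the 9 genes was not tested. The osteoclast marker sum overlapped between the male groups, at 12662 to 14461 and 12549 to 18289 FPKM. The cell cycle gene sum was 737 to 785 FPKM in male knockout libraries and 576 to 687 in male controls, without overlap. Of these genes 24 of 24 had a log2 change above 0, where 48.8% of all genes did, with a median of 0.29. The part of the cell cycle sum in the values of the 9 genes was not tested. In females this sum was 577 to 659 FPKM in knockout libraries and 603 to 689 in controls, with a median log2 change of -0.09.

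In females, no member was called, and limma called 0% of all genes tested in either direction. At an unadjusted p under 0.05, 1 of the 9 was higher, Lilrb4a, and none lower, where 5.27% of all genes were higher, 6.09% lower and 11.4% differed in either direction. Voom called none of the 9. Knockout libraries were wholly above controls for 1 of the 9, Siglec15, where 6.38% of all genes were, and wholly below for none, where 6.85% were. The log2 change was above 0 for 6 of the 9 and for 47.9% of all genes. Female knockout 1 and 2 also had the 2 lowest osteoclast marker sums of the 12 libraries, 10451 and 10294 FPKM, beside 13088 in female knockout 3 and 12431 to 15179 in female controls. Without the 3 interferon-high libraries, with 1 female knockout library left, the log2 changes of Oscar, Trem2, Tyrobp and Lilrb4a crossed 0. They were then 0.01, -0.02, -0.04 and -0.03, and the part of those 3 libraries in the values of any of the 9 genes was not tested.

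**Figure D3:**
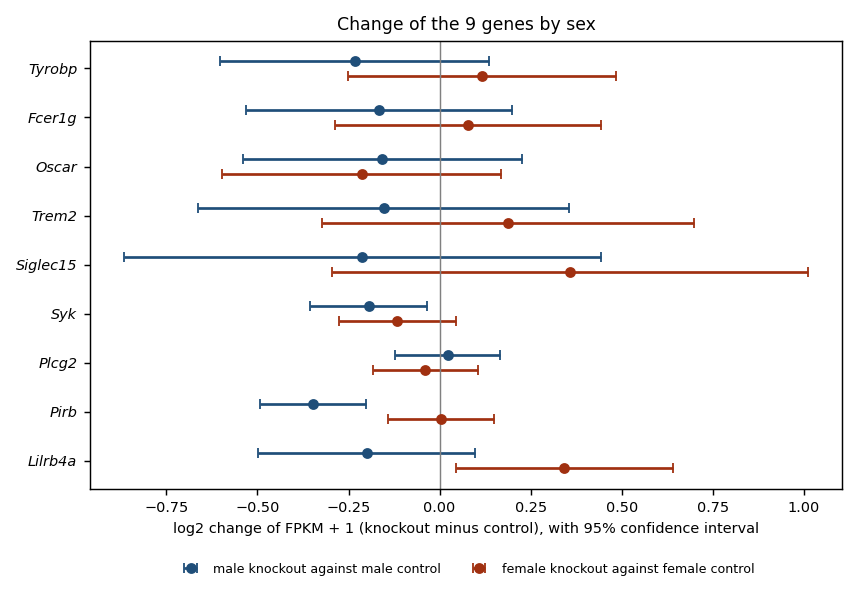
Log2 change of FPKM + 1 from control to knockout label for each gene on the horizontal axis, with 95% intervals, in males (blue) and females (red). The male interval excludes 0 for Pirb (-0.49 to -0.20) and Syk (-0.35 to -0.03), the female interval for Lilrb4a (0.04 to 0.64), and none of the 9 was called after adjustment.

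Averaged over both sexes, no member was called, where 0.00817% of all genes tested were (Cx3cr1, not called without the interferon-high libraries, at a limma adjusted p of 0.079). Pirb had a log2 change of -0.17 (interval -0.27 to -0.07, limma adjusted p = 0.282) and Syk of -0.16 (interval -0.27 to -0.04, limma adjusted p = 0.354), which was -0.10 without the interferon-high libraries. These 2 of 9 were lower at an unadjusted p under 0.05, as were 5.43% of all genes, with 10.4% in either direction.

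The difference between the sexes, taken as the female minus the male log2 change, was tested in the same fit and called for no member and for 0% of all genes. It was 0.35 for Pirb (interval 0.14 to 0.56, limma adjusted p = 0.200) and 0.54 for Lilrb4a (interval 0.12 to 0.96, limma adjusted p = 0.229). These 2 of 9 were above 0 at an unadjusted p under 0.05, as were 7.49% of all genes, with 17% in either direction. For Lilrb4a the difference was 0.17 without the interferon-high libraries. For Pirb, whose male values do not involve those libraries, it was 0.37. For the other genes it ran from -0.06 for Plcg2 and Oscar to 0.57 for Siglec15, with adjusted p of 0.444 or more. The Siglec15 difference was 0.32 without male control 2, 0.34 without male knockout 1, 0.95 without male control 3 and 0.88 without the interferon-high libraries. The Oscar difference turned to 0.18 without male control 3, 0.02 without female knockout 2 and 0.17 without the interferon-high libraries, and was -0.21 without male control 2.

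Between female and male controls, which are the same libraries that serve as controls above, limma called 0.0572% of all genes tested and no member. At an unadjusted p under 0.05 none of the 9 differed, where 5.57% of all genes did. Lilrb4a was wholly higher in female controls, where 5.53% of all genes were higher and 3.65% lower, at 29.8 ± 1.15 FPKM against 24.4 ± 1.24 in male controls (SD, n = 3). Its log2 change was 0.28 (interval -0.02 to 0.57, limma adjusted p = 0.865). Siglec15 was lower, at 44.0 ± 5.85 against 65.3 ± 26.3 FPKM, with overlapping libraries and a log2 change of -0.47 (interval -1.13 to 0.18, limma adjusted p = 0.885). It was -0.23 without male control 2 and -0.85 without male control 3. The other 7 had log2 changes from -0.10 for Oscar to 0.17 for Trem2.

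Across libraries the 9 genes moved in different company. After subtracting group means of log2(FPKM + 1), Tyrobp and Fcer1g had a Pearson r of 0.90 over the 12 libraries, and Pirb had r of 0.86 with Tyrobp and 0.88 with Fcer1g. Trem2 had r of 0.75 with Tyrobp and 0.78 with Fcer1g. Oscar went with Siglec15 (r = 0.79) and Plcg2 (r = 0.78), and against Trem2 (r = -0.56). Syk went against Tyrobp (r = -0.71) and Lilrb4a (r = -0.83). These points share libraries, depth and the pattern of the interferon-high libraries, and the coefficients are descriptions. The closest patterns come from a search over all tested genes with a mean of 5 FPKM or more. The highest r of such a search is high by selection, and no background r was computed. For each of the 9 genes, the 2 genes with the closest pattern were found after the same subtraction of group means. They were Clcn7 (r = 0.97) and Tbc1d24 (0.97) for Oscar, Slc11a1 (0.98) and Lyz1 (0.98) for Trem2, Ergic3 (0.98) and Sirt7 (0.98) for Tyrobp, and Alox5ap (0.99) and Plscr3 (0.98) for Fcer1g. For Siglec15 they were Mrpl34 (0.97) and Spi1 (0.97), for Syk Myof (0.96) and Ddi2 (0.96), for Plcg2 P2rx5 (0.97) and Tet3 (0.95), for Pirb Crip1 (0.97) and Aldh3b1 (0.95), and for Lilrb4a Ripk2 (0.97) and Ccdc115 (0.95).

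**Figure D4:**
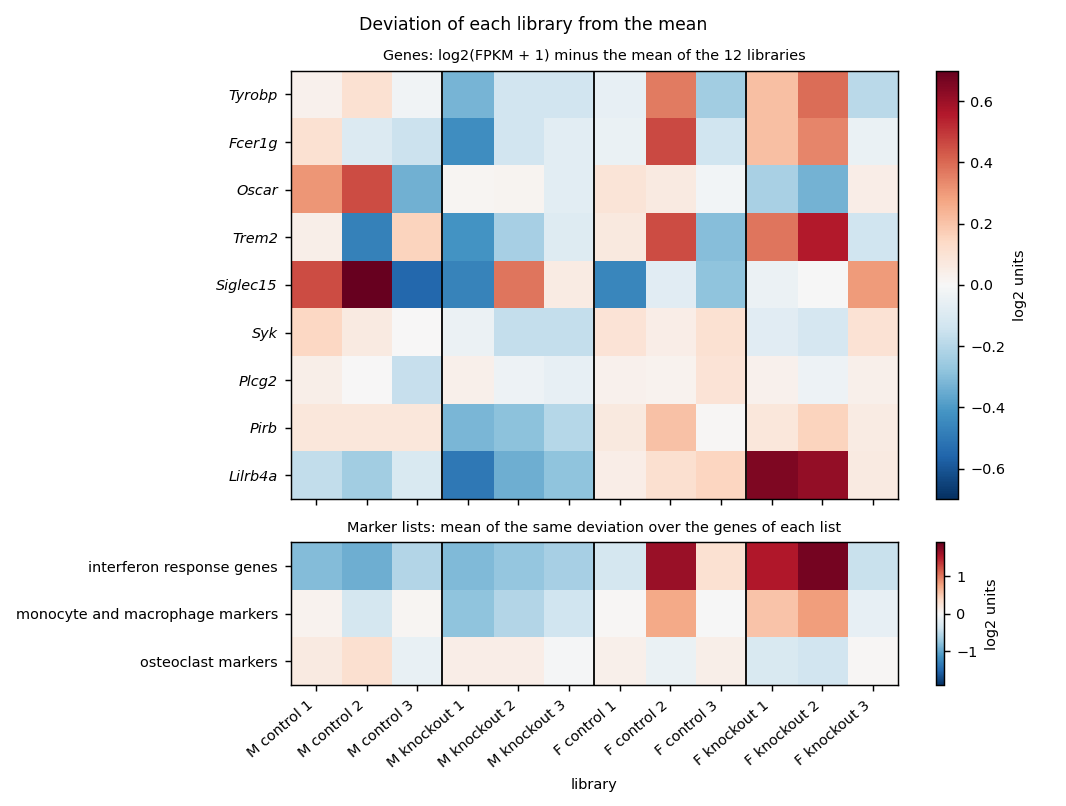
Deviation of each library (columns, M for male and F for female) from the mean of the 12 libraries in log2 units, for log2(FPKM + 1) of the 9 genes (upper panel) and for the mean over 3 gene lists (lower panel, with its own colour scale). Female control 2 and female knockout 1 and 2, with interferon scores of 1.64, 1.52 and 1.81, are the libraries in which Tyrobp, Fcer1g and Trem2 are highest.

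The other genes of the pathway were read from 6 lists, and no gene of any list was called in any of the 5 comparisons. Of 35 further ITAM adaptors and receptors, 27 were tested, and in males 26 of them had a log2 change below 0, as did 51.2% of all genes, with a median of -0.28 beside -0.0049 over all genes tested. In males 6 of the 27 and 6.54% of all genes were lower at an unadjusted p under 0.05, with 14.6% of all genes in either direction. Among them the Fc receptor Fcgr3 measured 50.5, 29.2 and 42.9 FPKM in controls and 24.1, 27.9 and 30.7 in knockout libraries (log2 change -0.52, limma adjusted p = 0.271). The paired receptor genes Lilra6 and Pira13 had log2 changes of -0.41 and -0.28 (limma adjusted p = 0.165 and 0.289). Both are close copies of Pirb and could share fragments with it. Genes of the Sirpb1 family are also among the 6. The 27 include the other Pira copies too, so the counts over this list are not counts of unrelated genes. The female log2 changes of Fcgr3, Lilra6 and Pira13 were 0.03, -0.13 and 0.04, or -0.06, 0.13 and 0.07 without the interferon-high libraries. Without male control 3 the male median was -0.16. In females 22 of the 27 were above 0, as were 47.9% of all genes, with a median of 0.12 beside -0.0083 over all genes. None of the 27 passed an unadjusted p under 0.05 in females, where 5.27% of all genes were higher and 6.09% lower. The lowest female p were those of Sirpb1b, Pilrb2 and the C-type lectin Clec4e, with log2 changes of 0.55, 0.36 and 0.36. Without the interferon-high libraries these were 0.52, 0.02 and 0.01, 8 of the 27 were above 0 and the female median was -0.10. These 27 signs share 1 knockout library, and the share of all genes above 0 in that fit was not computed.

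The list of ITIM and related inhibitory receptors held 26 other genes that were tested. They include Lilrb4b, which had no ITIM match, and the motif was not read in the others. Of the 26, 23 had a log2 change below 0 in males, where 51.2% of all genes did, with a median of -0.23. At an unadjusted p under 0.05, 5 of the 26 were lower in males, where 6.54% of all genes were lower and 14.6% differed in either direction. Sirpa, the receptor for the self marker CD47, measured 313, 284 and 267 FPKM in male controls and 226, 221 and 235 in male knockout libraries (log2 change -0.34, limma adjusted p = 0.116). The lectin Clec4a1 measured 66.9, 52.4 and 55.6 against 32.7, 30.9 and 39.3 FPKM (log2 change -0.75, limma adjusted p = 0.140). Neither overlapped between the male groups. Their female log2 changes were -0.10 and 0.03, or 0.0041 and 0.07 without the interferon-high libraries. In females 17 of the 26 were above 0, where 47.9% of all genes were. Their median of 0.12 was -0.11 without the interferon-high libraries. Siglecf and Siglecg had female log2 changes of -0.25 and 0.41, from levels between 0.59 and 2.12 FPKM. These were -0.20 and 0.08 without the interferon-high libraries. In females 1 of the 26 was lower and none higher at an unadjusted p under 0.05, where 6.09% and 5.27% of all genes were.

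Of 14 ligands tested, 10 were below 0 in males, where 51.2% of all genes were, with a median of -0.05. In females 8 were above 0, where 47.9% of all genes were. The female median was 0.05, and -0.21 without the interferon-high libraries. Fibronectin (Fn1), a ligand reported for the Lilrb4a receptor, measured 21.8, 12.4 and 17.9 FPKM in male controls and 4.83, 8.07 and 11.1 in male knockout libraries, without overlap (log2 change -1.06, limma adjusted p = 0.283). Calr and Lgals3 had male log2 changes of 0.17 and -0.17 (limma adjusted p = 0.411 and 0.523). Fn1 and Lgals3 had female log2 changes of 0.12 and 0.02, or 0.37 and -0.0016 without the interferon-high libraries. In females Calr, Cd200 and Clu had log2 changes of -0.25, -0.37 and -0.22, with limma adjusted p of 0.401, 0.453 and 0.644. These changes were -0.14, -0.23 and -0.62 without the interferon-high libraries.

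Of 34 kinases, phosphatases and adaptors downstream of ITAMs other than Syk and Plcg2, 28 were below 0 in males, where 51.2% of all genes were, with a median of -0.07. In males 9 of the 34 were lower at an unadjusted p under 0.05, where 6.54% of all genes were lower and 14.6% differed in either direction. The Src family kinase Fgr measured 46.2, 38.7 and 41.5 FPKM in male controls and 27.7, 29.5 and 35.4 in male knockout libraries, without overlap (log2 change -0.44, limma adjusted p = 0.114). The scaffold Gab2 and the exchange factor Vav2 had male log2 changes of -0.28 and -0.26 (limma adjusted p = 0.131 and 0.152). The female log2 changes of Fgr, Gab2 and Vav2 were 0.07, -0.15 and 0.04, or 0.10, -0.13 and 0.18 without the interferon-high libraries. In females 17 of the 34 were above 0, where 47.9% of all genes were. Their median of 0.0047 was 0.0040 without the interferon-high libraries. In females 5 of the 34 were lower at an unadjusted p under 0.05, Bcl10, Vav3, Tec, Lyn and the adaptor Lcp2 (named after its value was seen), where 6.09% of all genes were. Bcl10, Vav3 and the kinase Tec had female log2 changes of -0.21, -0.25 and -0.21, with limma adjusted p of 0.366, 0.404 and 0.409, and Bcl10 had a male log2 change of -0.18 (limma adjusted p = 0.238). Without the interferon-high libraries the female changes of these genes were -0.15, -0.25 and -0.29.

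The calcium and NFATc1 arm, with 22 genes tested, had 12 above 0 and a median of 0.03 in males, and 8 above 0 and a median of -0.03 in females. Over all genes tested, 48.8% were above 0 in males and 47.9% in females. Without the interferon-high libraries 12 of the 22 were above 0 in females, with a median of 0.03. Rcan1, a calcineurin regulator that is itself an NFAT target, measured 29.2, 27.8 and 30.4 FPKM in male controls and 38.6, 35.9 and 32.5 in male knockout libraries, without overlap (log2 change 0.28, limma adjusted p = 0.261). The calcium pump Atp2a2 and the factor Nfatc3 had male log2 changes of 0.25 and 0.14 (limma adjusted p = 0.311 and 0.429). In females Rcan1 measured 32.6, 24.3 and 32.3 FPKM in controls and 24.9, 25.5 and 25.9 in knockout libraries. The female log2 changes of Rcan1, Atp2a2 and Nfatc3 were -0.20, -0.18 and -0.01, or -0.31, -0.09 and 0.04 without the interferon-high libraries. The female minus male difference was -0.48 for Rcan1 and -0.43 for Atp2a2 (unadjusted p = 0.0084 and 0.016, adjusted p = 0.220 and 0.229 in limma). The calcineurin subunits Ppp3r1 and Ppp3cb had female log2 changes of -0.19 and -0.15 (limma adjusted p = 0.401 and 0.438), and of -0.19 and -0.16 without the interferon-high libraries. Among 11 phosphatases and adaptors of ITIM signalling, 4 were above 0 in males and 6 in females, where 48.8% and 47.9% of all genes were. Their medians were -0.03 and 0.02. The female median was 0.07 without the interferon-high libraries. In males the lowest p were those of Ptpn22, Dok3 and Ptpn11, with log2 changes of 0.18, -0.13 and 0.10, beside -0.03, 0.11 and -0.09 in females and -0.10, 0.07 and -0.10 there without the interferon-high libraries. In females they were those of Lyn, Dok2 and Inppl1, with log2 changes of -0.16, 0.33 and 0.21, or -0.28, 0.14 and 0.17 without the interferon-high libraries. The adjusted p of these genes in the sex that named them was 0.327 or more in limma.

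**Figure D5:**
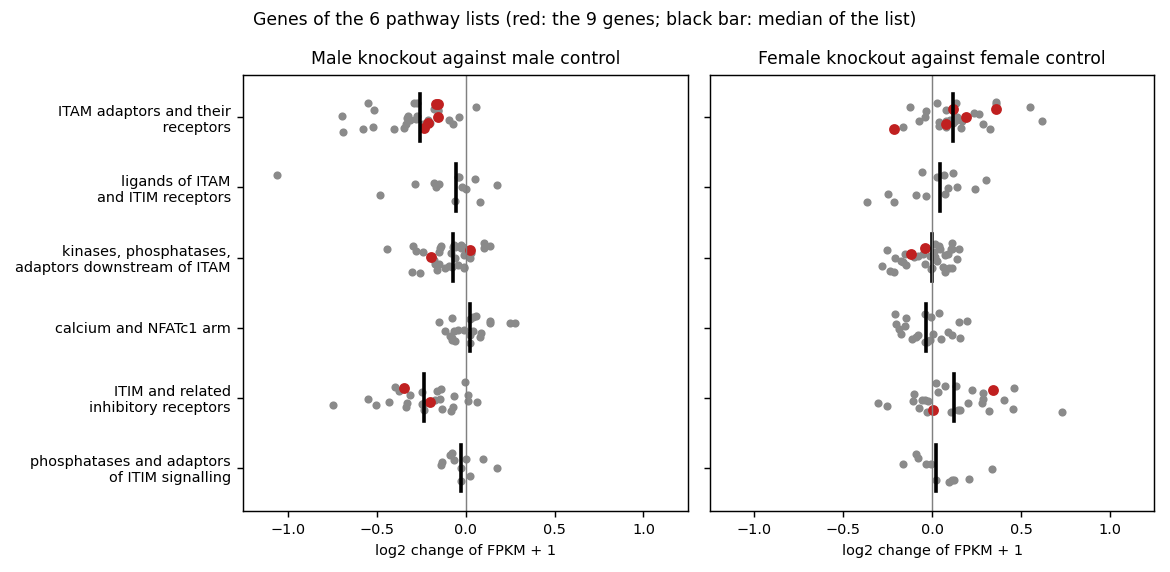
Log2 change of FPKM + 1 of every tested gene of the 6 pathway lists, in males (left) and females (right), with the 9 genes in red and a black bar at the median of each list. The medians of the ITAM and ITIM receptor lists lie at -0.26 and -0.23 in males and at 0.12 and 0.12 in females, and those of the signalling lists lie nearer to 0.

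Pirb and Lilrb4a have close copies that could share fragments with them. The coding sequence of Pirb was identical to those of the activating receptor genes Pira2, Pira12, Pira13 and Lilra6 at 94.2% to 95.8% of aligned bases, with identical runs of up to 523 bases. These copies had no ITIM match after their membrane windows. Lilrb4a and Lilrb4b were identical at 96.0% of 907 aligned bases, with an identical run of 126 bases, and Lilrb4b had no ITIM match. Pirb took 69.1% to 77.3% of the fragments assigned to it and its copies, and Lilrb4a took 31.3% to 44.2% of those assigned to it and Lilrb4b. Lilrb4b measured 34.7, 28.0 and 43.8 FPKM in male controls, 32.7, 31.6 and 35.9 in male knockout libraries, 42.6, 63.1 and 42.9 in female controls and 72.6, 72.4 and 40.2 in female knockout libraries. It was highest in the 3 interferon-high libraries, while Lilrb4a was high in only 2 of them. With the copies summed, the male log2 change of Pirb was -0.32 (interval -0.45 to -0.18, limma adjusted p = 0.104). The female log2 change of Lilrb4a with Lilrb4b summed was 0.31 (interval -0.12 to 0.73, limma adjusted p = 0.526). Of the other copies, Pira1, Pira2 and Pira12 had male log2 changes of -0.20, -0.18 and -0.07, and Lilra5 was at 0.355 FPKM or less in every library.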

How the data were processed

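RNA-seq libraries of 12 osteoclast cultures were analysed from the authors' deposited table of FPKM per gene. Tools listed, without roles, in the submitters' processing notes are featureCounts 1.5.0-p3 and HISAT2 2.0.5, with build mm10. Whether counting used strand was not given. Gene positions printed here are those of GENCODE M21 on GRCm38, matched by gene identifier. The table's own coordinates equalled them for 0 of the 9 members, so its build is uncertain. FPKM times length were whole multiples of 1 step in 100% of values within a tolerance of 0.01, and fragments rebuilt from these steps were used for depth, copies and voom. Sex and genotype come from the labels.

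The 12237 genes that reached 1 FPKM in 3 libraries were fitted as log2(FPKM + 1) with limma 3.58.1 in R 4.3.3, with means of 4 groups over all 12 libraries, trended moderated variances, two-sided tests, and calls at a Benjamini-Hochberg adjusted p under 0.05. The added 1 shrinks the fold changes of genes with little expression. Scripts were tested on simulated data, drawn with the same spread for all genes and without interferon-high libraries. Of genes with a true log2 change of 1 in size, the fit called 70.1% in males and 74.5% in females. At a true size of 0.5 it called 10.3% and 6.25%, so most changes of that size were missed. The members, the 18 gene lists (6 of the pathway, 9 of other cells) and the alternatives were chosen with earlier results of these data known, and some lists share genes. Beside the members, the text names the up to 3 list genes of lowest p per list and sex, the close copies, the 2 genes of closest pattern and Cx3cr1, Per1, Xist and Ddx3y as label checks. Ddx3y was 0 FPKM in every female library. Pira4, Pira6 and Pira7 were not matched by symbol. A further gene that the naming rule selects is not reported here.

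Same-numbered libraries share a labelled batch, so the number pairs them. Of 18 same-numbered pairs, 4 had correlated deviations above 0.1, from -0.217 to 0.440, with a mean of -0.0034 beside -0.00066 for other pairs.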

Additional observations from a re-analysis of the deposited data

Results flagged for a closer look

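Tyrobp was marked because its same-numbered male pairs all moved down and its female pairs all moved up. The male log2 differences of knockout minus control were -0.36, -0.24 and -0.11 for replicates 1, 2 and 3, and the female ones were 0.27, 0.03 and 0.05. The female minus male change was 0.35 and did not pass the test of the difference itself (limma adjusted p = 0.444). Without the 3 interferon-high libraries it was 0.19.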

How the results depend on the processing

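No member was called in any of 973 recomputed values. The lowest limma adjusted p was 0.0682 (Pirb, difference between the sexes), 916 values kept their direction and 57 turned. Many of the 973 could not turn, because the alternative leaves the log2 change as it is. Leaving out a library of a group not compared and fitting variances without a trend are examples. For counts of called genes in males, against 1 in the standard fit, a pseudocount of 0.1 gave 4, no filter 2, median ratio rescaling 6 and voom 5. Fitting only the groups compared gave 0, and so did leaving out the 3 interferon-high libraries. Leaving out each library in turn gave 0 to 64 male calls, 64 without male control 3, with 45 higher and 19 lower. In females, against 0, no filter gave 90, variances without a trend 3, the fit without the interferon-high libraries 2, and leaving out each library 0 to 1. Averaged over sexes, against 1, no filter gave 11 and the fit without interferon-high libraries 0. For the difference, against 0, a pseudocount of 0.1 gave 1, no filter 13, the fit without interferon-high libraries 1, and leaving out each library 0 to 1. For female against male controls, against 7, fitting only these groups gave 4. A replicate block fitted within each sex gave a male count of 0 (Cx3cr1 was lost, at the same log2 change of -1.79 and a limma adjusted p of 0.093), and the block changed no other call.

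Leaving out each library in turn moved log2 changes across 0 as follows. In males they spanned -0.587 to 0.0356 for Siglec15 and -0.0392 to 0.062 for Plcg2. In females they spanned -0.0161 to 0.286 for Tyrobp, -0.0377 to 0.262 for Fcer1g and -0.0404 to 0.0603 for Pirb. Averaged over sexes they spanned -0.0785 to 0.118 for Trem2, -0.125 to 0.0266 for Tyrobp, -0.102 to 0.0482 for Fcer1g, -0.115 to 0.197 for Siglec15 and -0.0391 to 0.0115 for Plcg2. The difference spanned -0.213 to 0.184 for Oscar and -0.101 to 0.000204 for Plcg2. Between controls they spanned -0.339 to 0.0582 for Oscar, -0.0233 to 0.355 for Trem2, -0.184 to 0.118 for Tyrobp, -0.0461 to 0.254 for Fcer1g, -0.0197 to 0.0516 for Syk and -0.0409 to 0.0598 for Pirb. Without the interferon-high libraries the female values of Tyrobp, Oscar, Trem2 and Lilrb4a were -0.0396, 0.0129, -0.0237 and -0.0341. The averaged values of Trem2 and Lilrb4a were -0.0888 and -0.117, the Oscar difference was 0.170, and the values between controls were -0.0461 for Fcer1g, -0.0409 for Pirb and -0.0223 for Trem2. Quantile normalization gave -0.000388 for Pirb and -0.0299 for Syk between controls. Voom gave -0.000604 and -0.00213 for these, and 0.0212 for Plcg2 averaged over sexes. With close copies summed Pirb was -0.0156 in females and -0.00873 between controls. Where no construction of an alternative shows it, the cause was not tested.

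Depth limits low genes: 3 fragments on a gene of 1 kb equal 0.119 to 0.188 FPKM. Members held 704 to 13095 fragments per library. The level per kilobase of 1 coding transcript and the list counts and list genes without the interferon-high libraries or male control 3 were chosen after seeing the data. Differences whose interval includes 0 are not shown to be absent.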
